A study of Mus musculus with 4 samples.

Results

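By the fourth day of adipocyte induction, 247 array probes had changed in opposite directions in a pair of mouse cell lines, with a signal up by 2-fold or more in one line and down by 2-fold or more in the other. Of these, 185 went up in C3H10T1/2 and down in 3T3-L1, called here the larger direction. The other 62 went down in C3H10T1/2 and up in 3T3-L1, called the smaller direction. The members were chosen by these changes in the authors' log2 value table, from 36402 probes of the ASMM10P and ASMM10UP series that were well above background on at least 1 array of each line (0.679% of them, of which 0.508% in the first direction and 0.170% in the second). The array has 60819 noncontrol probes in that table, 58968 of them in these 2 series. With normexp background correction and quantile normalization of the scanner intensities in place of the authors' table, 58 probes met the rule in the larger direction and 13 in the smaller, and 70 of these were among the 247. The opposite signs are what the rule asked for and are given here as a description, with no test.

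C3H10T1/2 is an established line of mesenchymal progenitors from mouse embryo that can enter the fat, bone, cartilage or muscle lineage, and 3T3-L1 is an established line of preadipocytes that is already committed to fat. Adipocyte formation runs from early transcription factors such as C/EBP beta and C/EBP delta to PPAR gamma and C/EBP alpha, which switch on genes of lipid uptake, synthesis and storage while genes of the fibroblast state are shut down.

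The 4 samples were total RNA of C3H10T1/2 at day 0 and at day 4 after induction and of 3T3-L1 at the same days, 1 array each. Each group is 1 sample of 1 cell line, with no genetic change or further treatment in the labels, and the composition of the induction medium is not given in the sources used here. All 4 arrays lay on 1 slide and were read in 1 scan, per the file headers, so slide and scan do not separate the groups. From 58.9% to 63.9% of the noncontrol probes were well above background per array, and no spot was saturated. With 1 array per group there is no spread between cultures: every change below has no replicate check, and the only error available is the scanner software's estimate for single spots. Precision is limited by this number of arrays.

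Members carry identifiers of the array's maker, and no file pairs one of them with a gene. The names, functions and sequences of the transcripts behind the 247 members are therefore not analysed here, and neither are the markers of adipocytes, fibroblasts or other cell types that would check the labels. The members are described by their signals, by the order of the lines before and after induction, and by their place in the identifier series. In bulk RNA of a culture, a change in the share of cells that carry a transcript and a change in its amount per cell cannot be told apart.

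Changes in either line alone were common. Of the 36402 probes, 8.89% went up and 7.83% went down by 2-fold or more in C3H10T1/2. The shares for 3T3-L1 were 9.00% up and 11.2% down. With no limit on size, 14.7% of probes had the pair of signs of the larger direction and 21.2% that of the smaller. The 2-fold members thus ran mostly in the first direction (74.9% of them), while small opposite differences were more often of the second kind. The median change in the authors' values was -0.05 in C3H10T1/2 and 0.04 in 3T3-L1, the pair of signs of the second kind. The part of this small offset in the counts without a size limit was not tested.

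The median log2 value of the 185 members went from 5.91 (day 0) to 7.72 (day 4) in C3H10T1/2, while that in 3T3-L1 went from 7.80 to 6.03. The uninduced 3T3-L1 cells thus had nearly the median of the induced C3H10T1/2 cells, and the induced 3T3-L1 cells nearly that of the uninduced C3H10T1/2 cells. This likeness is of medians over the set and does not speak for single members. All probes passing the filter had a median of 7.86 on each array. At day 0 single members ranged from 2.42 to 13.36 in C3H10T1/2, and those in 3T3-L1 ranged from 4.57 to 14.72. The change had a median of 1.54 in C3H10T1/2 and of -1.59 in 3T3-L1. Among members well above background on all arrays it reached 4.17 and -5.58. The size of the change was the larger in C3H10T1/2 for 92 of the 185 members, so neither line led.

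For the 62 members the median log2 value went from 8.55 to 6.57 in C3H10T1/2, while that in 3T3-L1 went from 5.92 to 8.03. Single members ranged at day 0 from 5.0 to 14.83 in the first line, and from 2.43 to 11.34 in the second. By these medians C3H10T1/2 began above 3T3-L1 and ended below it, and the sign of the line difference turned in 48 of the 62 members. The change had a median of -1.54 in C3H10T1/2 and of 1.29 in 3T3-L1. Among members well above background on all arrays it reached -3.79 and 3.19. Here the change was larger in C3H10T1/2 for 41 of the 62 members.

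Few members changed by 4-fold or more in both lines. Both changes were under 4-fold for 90 of the 185 members and for 35 of the 62, and both were at least 4-fold for 18 and 5. A change of 4-fold or more was seen in C3H10T1/2 for 62 members of the larger direction, and in 3T3-L1 for 51. The counts for the smaller direction were 17 and 15. The member nearest inside the threshold of 1 on the log2 scale had changes of 1.002 and -1.09 in the larger direction, and the nearest probe outside had 0.9995 and -2.41. The pairs of the smaller direction were -1.002 and 1.35 inside, and -1.39 and 0.9945 outside. Within 0.1 of the threshold lay 45 members and 61 probes just outside in the larger direction, and 21 and 31 in the smaller, a distance below the median scanner error of a change, which was 0.21 in fully measured members.

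Detection divided the members. Of the 247, 132 were well above background on all 4 arrays, 53.4%, against 88.9% of all probes passing the filter. These were 92 of the 185 and 40 of the 62 (0.284% and 0.124% of the 32369 probes well above background on all arrays). Of the 185, 48 members were above background only on the C3H10T1/2 day 4 and 3T3-L1 day 0 arrays, 26 on these and the 3T3-L1 day 4 array, and 19 on these and the C3H10T1/2 day 0 array. Of the 62, 4 were above background only on the C3H10T1/2 day 0 and 3T3-L1 day 4 arrays, 14 also on C3H10T1/2 day 4 and 4 also on 3T3-L1 day 0. A probe that passed the filter only through its 2 bright arrays had to differ between days, so values of the 132 fully measured members are given beside those of all members where the levels matter. Brightness followed detection. The fully measured members of the larger direction had medians of 8.20 at day 0 and 9.63 at day 4 in C3H10T1/2, while 3T3-L1 went from 9.91 to 8.10. Those of the smaller direction went from 9.11 to 7.37 in C3H10T1/2, while 3T3-L1 went from 7.15 to 8.51. The other members lay lower, with C3H10T1/2 medians of 4.35 and 6.15 against 3T3-L1 medians of 5.97 and 4.19 in the larger direction. Their changes were larger, at 1.82 and -1.81 against 1.35 and -1.50 in the fully measured members of that direction, and these values of dim arrays have no firm size.

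For the 115 other members the dim array gives no firm value. Each dim value was replaced by the lowest log2 value of any probe above background on that array (from 4.42 to 4.79), or kept where it was higher. This floor is nominal and not a guaranteed limit, since some dim members lay above it, so true changes may be smaller. With these values 51 of the 115 still had opposite changes of at least 2-fold, 38 of 93 in the larger direction and 13 of 22 in the smaller. The smaller of a member's changes was then 1.83-fold at the median in the larger direction and 2.09-fold in the smaller. At most it was 12.4-fold and 5.58-fold, and 2 members had no fold left.

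The size of the scanner software's spot error, taken as independent between arrays, can be set beside these changes. In the fully measured members the error of a change had a median of 0.21 on the log2 scale in each line and each direction. In the dim members it had a median of 0.53 in C3H10T1/2 and 0.54 in 3T3-L1 for the larger direction, and of 0.30 and 0.61 for the smaller. Since the rule asks for changes of at least 1, the changes of the fully measured members exceed this error by construction. The error covers 1 spot on 1 array and no repeated culture or labelling.

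Dim probes were more frequent among members. The 36402 probes were split into 3 equal bands by mean log2 value, with edges at 6.83 and 9.06. In the lowest band 0.742% belonged to the larger direction and 0.239% to the smaller. The middle band held 0.396% and 0.214%, and the highest 0.387% and 0.0577%. Of the 62 members 7 lay in the highest band, against 47 of the 185. The part of signal level in these counts was not tested.

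For each direction 2 probes are given, those with the largest smaller-of-the-changes among members well above background on all arrays. They are extremes of the values that chose the members and do not stand for their direction. ASMM10P021789 had processed intensities of 54.0 ± 8.12 (scanner error) at day 0 and 387 ± 39.3 at day 4 in C3H10T1/2. The 3T3-L1 values were 696 ± 69.9 and 80.1 ± 9.92. The uninduced 3T3-L1 and the induced C3H10T1/2 cells were high and the other samples low. Its log2 change was 2.66 ± 0.26 (scanner error, n = 1 array per group) in C3H10T1/2, or 6.32-fold higher, and -3.00 ± 0.23 in 3T3-L1, or 8.02-fold lower. With normexp and quantile normalization the changes were 1.805 and -2.301. The lines changed places: 3T3-L1 was 11-fold above C3H10T1/2 at day 0 and 4.63-fold below it at day 4.

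ASMM10P012350 had intensities of 185 ± 19.6 (scanner error) at day 0 and 1262 ± 126 at day 4 in C3H10T1/2. The 3T3-L1 values were 139 ± 15 and 29.5 ± 6.44. The lines began near each other, 1.63-fold apart, and ended 39.3-fold apart with C3H10T1/2 above. The log2 change was 2.55 ± 0.21 (scanner error) in C3H10T1/2 and -2.04 ± 0.35 in 3T3-L1. Its 3T3-L1 day 4 signal was close to the background limit, where the lowest intensity called above background was 23.3. With normexp background correction and quantile normalization the 3T3-L1 change was -0.91, so this probe was then not a member.

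ASMM10P050862, of the smaller direction, had intensities of 184 ± 19.2 (scanner error) at day 0 and 55.4 ± 7.78 at day 4 in C3H10T1/2. The 3T3-L1 values were 57.9 ± 7.84 and 170.2 ± 17.9. The day 4 level of each line was near the day 0 level of the other. Its log2 change was -1.85 ± 0.25 (scanner error) in C3H10T1/2 and 1.78 ± 0.25 in 3T3-L1, and the lines crossed from 4.02-fold apart with C3H10T1/2 above to 3.07-fold apart with 3T3-L1 above. Normexp and quantile normalization left -1.10 and 1.01.

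ASMM10P041194 had intensities of 129.6 ± 14 (scanner error) at day 0 and 28.4 ± 6.20 at day 4 in C3H10T1/2. The 3T3-L1 values were 48.0 ± 7.0 and 133 ± 14.3. Its changes were -2.33 ± 0.35 (scanner error) and 1.69 ± 0.26 on the log2 scale. It also crossed, from 3.44-fold higher in C3H10T1/2 at day 0 to 4.72-fold higher in 3T3-L1 at day 4. With normexp and quantile normalization the changes were -1.17 and 0.88, so this probe was then not a member.

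Whether the lines converged or crossed was read from the difference of 3T3-L1 minus C3H10T1/2 at each day. A member crossed where the lines were at least 2-fold apart at both days with opposite signs, converged where they were at least 2-fold apart at day 0 only, diverged where they were so at day 4 only, and kept its side where they were at least 2-fold apart at both days with the same line on top. The rule fixes that the difference shifts by at least 2 on the log2 scale between the days, so each member falls in 1 of these classes, and the shares are a description. Of the 247 members 85 crossed, 65 converged, 71 diverged and 26 kept their side. No class held most of them. Of the 132 fully measured members 41 crossed, 39 converged, 45 diverged and 7 kept their side, so that diverged members were the most frequent there.

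Over all 36402 probes, 0.769% crossed, 7.55% converged, 8.54% diverged and 4.79% kept their side, and 78.4% were under 2-fold apart at both days. Only 280 probes crossed, and 85 of these (30.4%) were members. Crossing needs the difference to shift by at least 2 on the log2 scale, which the rule sets in each member. No member can be under 2-fold apart at both days. The class shares of all probes, here and below, are therefore not a like baseline for the members.

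Of the 185 members 64 crossed (34.6%), 42 converged (22.7%), 59 diverged (31.9%) and 20 kept their side (10.8%). Of the 62 members 21 crossed (33.9%), 23 converged (37.1%), 12 diverged (19.4%) and 6 kept their side (9.68%). Among fully measured members of the larger direction 29 of 92 crossed, 21 converged, 35 diverged and 7 kept their side. Among those of the smaller direction 12 of 40 crossed, 18 converged, 10 diverged and 0 kept their side. Over all 32369 fully measured probes 0.426% crossed, 7.07% converged, 7.41% diverged and 3.95% kept their side. The lines were nearer at day 4 for 79 of the 185 members (42.7%) and for 40 of the 62 (64.5%), against 49.8% of all probes. The difference between the directions was not tested.

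The crossed members of the larger direction that were fully measured had median log2 values of 8.28 at day 0 and 9.54 at day 4 in C3H10T1/2. The medians in 3T3-L1 were 10.02 and 7.92. The median difference between the lines was 1.63 at day 0 (range 1.08 to 4.49) and -1.94 at day 4 (range -3.33 to -1.08). The 12 such members of the smaller direction had a median difference of -1.54 at day 0 and 1.42 at day 4.

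Converged members started apart and met. The 21 fully measured ones of the larger direction had a median difference of 2.53 at day 0 (range 1.55 to 5.90) and of -0.20 at day 4 (range -0.84 to 0.99). The rule and the class together set 3T3-L1 above at day 0 in each of them. Their median signal went from 7.72 to 8.95 in C3H10T1/2, while that in 3T3-L1 went from 10.54 to 9.37. The 18 fully measured ones of the smaller direction had a median difference of -2.52 at day 0 (range -4.32 to -1.51) and of 0.38 at day 4 (range -0.998 to 0.99). C3H10T1/2 went from a median of 9.70 to 8.14, while 3T3-L1 went from 7.30 to 8.52.

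Diverged members started alike and parted. The 35 fully measured ones of the larger direction had a median difference of 0.50 at day 0 (range -0.84 to 0.98) and of -2.78 at day 4 (range -5.30 to -1.38). C3H10T1/2 went from a median of 8.72 to 10.35 and 3T3-L1 from 8.91 to 7.56. The 10 of the smaller direction went from -0.47 to 2.08 in this difference, with C3H10T1/2 at 7.55 and then 6.24, and 3T3-L1 at 7.04 and then 8.47.

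Of the 20 in the larger direction 12 had 3T3-L1 above C3H10T1/2 at both days, and 8 had it below at both days. All 6 of the smaller direction had 3T3-L1 below, and none of the 6 was well above background on the 3T3-L1 day 0 array. With the dim values of that array replaced as above, the median difference at day 0 was -5.72. At day 4, where each was measured in both lines, the median difference was -2.07. Their median in C3H10T1/2 at day 0 was 10.13. Their signal in 3T3-L1 at day 4 lay between 4.92 and 5.59, just above the lowest value called above background there, 4.59. The brightest of them had 14.83 at day 0 and 13.17 at day 4 in C3H10T1/2 (a probe singled out after its values were seen), so a large C3H10T1/2 signal stood against a 3T3-L1 signal near background at both days.

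By sign alone, with no 2-fold limit on the difference, the lines changed places in 129 of 185 members (69.7%) and in 48 of 62 (77.4%), against 42.0% of all probes. The rule makes the difference shift by at least 2 on the log2 scale in each member, which favours a turn of sign. The share of all probes is therefore not a like baseline. Among the 129, the gap was smaller at day 4 in 52, and among the 48 in 30. At day 0 the line whose signal was going to be lower was the higher one in 156 of the 185 members and in 58 of the 62. At day 4 the line whose signal had become higher was on top in 158 and 52. The day 0 value enters both the difference at day 0 and the change within the line, so these counts share their arrays.

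Across members, the lines were less alike than across all probes. Over the 36402 probes the log2 values of the lines had Pearson's r = 0.945 at day 0 and 0.949 at day 4. Over the 185 members r was 0.690 and 0.705, and over the 62 members 0.311 and 0.367. Between the days of the same line it stayed at 0.925 in C3H10T1/2 and 0.953 in 3T3-L1 for the larger direction, and at 0.918 and 0.853 for the smaller. Between C3H10T1/2 at day 4 and 3T3-L1 at day 0 it was 0.695 for the larger direction and 0.390 for the smaller. Between C3H10T1/2 at day 0 and 3T3-L1 at day 4 it was 0.714 and 0.272. These correlations are across probes, which are not independent replicates and share the same 4 arrays, and the values correlated are those that chose the members.

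What the rule did not use is the place of a member in the identifier series. The files do not say what the numbering means, and probes with neighbouring numbers may read related transcripts. For the 185 members, probes with the identifier number just before or after passed the filter 225 times, and 26 of these (11.6%) were members of the same direction, against 0.508% of all probes. A pair of adjacent members counts from both sides. None was a member of the other direction. At a distance of 2 the count was 16 of 215 (7.44%), with 1 further member of the other direction. At 3 it was 6 of 223 (2.69%), at 10 it was 6 of 208 (2.88%), and at 50 it was 4 of 207 (1.93%). The ends of runs of 3 adjacent members count at a distance of 2. A single stretch of the series also recurs in these counts. It gave ASMM10P019040 with ASMM10P019042, ASMM10P019051 with ASMM10P019053 and ASMM10P019066 with ASMM10P019068 at 2. At 3 it gave ASMM10P019032 with ASMM10P019035 and ASMM10P019039 with ASMM10P019042. The counts are therefore not spread evenly over the 185 members. For the 62 members 0 of 82 adjacent probes were members, against 0.170% of all probes in this direction, and at a distance of 3 there were 2 of 85 (2.35%). At that share so few neighbours cannot show whether the smaller direction lacks adjacent members.

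The adjacent members formed 10 runs, 7 of 2 probes and 3 of 3 probes, with 23 members in all, and all 10 were of the larger direction. Each probe of a run met the rule, so the 2-fold change at more than 1 spot follows from the choice. Whether the probes of a run share a transcript or sequence was not tested. Of the 23 members 13 were fully measured. Their change in C3H10T1/2 ran from 1.09 to 2.98 with a median of 1.94, while that in 3T3-L1 ran from -3.00 to -1.09 with a median of -1.74. In 5 of the 10 runs all probes were in 1 class. All probes of 3 runs were above background on all arrays. Within these 3 the change in C3H10T1/2 spread over 0.07 to 0.27 on the log2 scale, and the change in 3T3-L1 over 0.45 to 0.55. Over all 10 runs, dim arrays included, the spread had a median of 0.75 in C3H10T1/2 (highest 3.94) and of 0.48 in 3T3-L1 (highest 1.09).

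Both named probes of the larger direction belonged to such runs. The probes with the next 2 numbers after ASMM10P012350 were also fully measured members, with changes of 2.67 and 2.40 in C3H10T1/2 and of -1.74 and -1.49 in 3T3-L1. Their log2 values were 9.89 and 9.49 in C3H10T1/2 at day 0, against 7.66 for ASMM10P012350, so brighter neighbours showed like changes. In 3T3-L1 at day 4 they were at 6.76 and 7.33, clear of the background limit. The probe just before ASMM10P012350 changed by 1.54 in C3H10T1/2 and by 0.01 in 3T3-L1. The probe after ASMM10P021789 was a member too, with 1.28 and -2.53, but was above background on 2 arrays only. The probe before it, at 13.08 in C3H10T1/2 at day 0, changed by -0.79 and -1.23.

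No adjacent probe of the named members of the smaller direction was a member. The fully measured probe just after ASMM10P050862 changed by -0.75 in C3H10T1/2 and by -0.71 in 3T3-L1. That after ASMM10P041194 changed by -0.74 and 0.30. Neither had the 2-fold opposite pattern.

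Most adjacent probes did not share the 2-fold pattern. Over the 225 of the larger direction, members included, the median change was 0.18 in C3H10T1/2 and -0.15 in 3T3-L1, and 68 of them (30.2%) had the same pair of signs, against 14.7% of all probes. For the smaller direction the median was 0.06 and 0.14, and 18 of 82 (22.0%) had the same signs, against 21.2%.

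Each member was printed in 1 spot per array. The members had a median row of 181 and column of 80 in the larger direction and of 202.5 and 85 in the smaller, against 193 and 82 for all probes. Of the members, 3 (1.21%) belonged to the ASMM10UP series, against 0.926% of all probes.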

How the data were processed

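RNA of 4 samples was hybridised with 1 dye to the same array design. The deposited scanner files hold an intensity per spot, background-subtracted and detrended within the array, and came from Agilent's Feature Extraction (version 11.0.1.1), per the submitters' processing notes. The authors' table holds log2 values made by a method that the sources used here do not give. Its day 4 changes differed by at most 0.083 from those of quantile-normalized scanner intensity (limma 3.58.1, R 4.3.3). That table was used because the choice of members rests on it. The intensities printed for named probes and the error of each spot come from the scanner files. The error of a change is the root of the summed squares of both relative errors, in log2 units.

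Levels, folds and classes were computed in Python 3.11.15. No hypothesis was tested, because each group has 1 array and the choice used the changes themselves. The classification code was run on simulated members set clear of its cuts and above background on all arrays. That run says nothing of probes near the threshold or of dim arrays. The named probes were the 2 per direction with the largest smaller-of-the-changes above background on all arrays. The members, the rule and the lists were chosen with earlier results of these data known. Lists of gene names were not scored, since the files pair the members with no gene. Alternatives were scaling to the 75th percentile, quantile normalization, normexp background correction (offset 50) on the deposited median intensity of spot and local background followed by quantile normalization, other filters on dim probes, and other thresholds.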

Additional observations from a re-analysis of the deposited data

Results flagged for a closer look

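All 185 members of the larger direction and all 62 of the smaller have changes of opposite sign in the lines. This difference was not tested, since each group has 1 array and the members were chosen for it. For the named probes, the log2 change in 3T3-L1 exceeded or fell short of that in C3H10T1/2 by these signed amounts (3T3-L1 minus C3H10T1/2): -5.665 for ASMM10P021789, -4.587 for ASMM10P012350, 3.625 for ASMM10P050862 and 4.019 for ASMM10P041194.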

How the results depend on the processing

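Quantile-normalized scanner intensity gave all 247 members again. With scaling to the 75th percentile 195 and 57 probes met the rule (larger and smaller direction), 229 of them members. With normexp and quantile normalization 58 and 13 did, 70 of them members, and 53.8% of the 13 converged. Above background on all arrays were 92 and 40, and without a filter 324 and 160 met the rule. By construction a threshold of 1.5-fold gave 595 and 363, of which 19.2% and 9.92% crossed. A threshold of 3-fold gave 43 and 13, of which 48.8% and 53.8% crossed, 14% and 7.69% diverged, and 7.69% of the 13 converged. By sign alone 69.7% and 77.4% crossed, 14.6% and 16.1% converged and 15.7% and 6.45% diverged. The other 46 of 70 counts and shares stayed within 1.5 times or within their 95% exact binomial interval. They include those of quantile-normalized intensity, which could hardly move, since its changes differed by at most 0.083 from the authors' table. The interval treats probes as independent draws, though they share the same arrays and were chosen by their values. The alternative sets also overlap the main set. It therefore serves only to mark larger shifts and gives no measure of spread between cultures. No named probe changed sign, though ASMM10P012350 and ASMM10P041194 fell under 2-fold in 3T3-L1 with normexp. Except where the construction sets the count, the cause was not tested. No paired analysis was possible because each group has 1 array and the labels give no replicate numbers. Signals near background limit 115 of the 247 members.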

Other observations

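Probes whose names the rule leaves out were read by the same limits. Of the 479 that were above background on at least 1 array of each line (15 named CUST_, 267 for human lincRNAs, 167 for mouse lincRNAs and 30 named MM9LINCRNAEXON), 0 changed oppositely by 2-fold, against 0.679% of the probes the rule takes. The control probes gave 0 as well. The upper end of the exact 95% binomial interval for 0 of 479 is 0.767%, above the 0.679%, so these probes are too few to show a difference.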
